A study of Homo sapiens with 6 samples.

Results

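The actin and SRF-linked contractile genes described here were 10 named genes, taken by symbol, among 19775 genes on the array. They were the transcription factor SRF, 5 genes of the ubiquitous cytoskeleton (ACTG1, TAGLN2, TPM4, VCL and CNN2) and 4 genes best known from muscle (ACTA1, TAGLN, MYL9 and TPM1). The platform annotation named a member in 33 of 54675 probe sets, of which 24 named 1 member and 9 named ACTG1 together with ACTB. RNA came from xenografts of HT-29, an established human colon adenocarcinoma line, grown in both femoral regions of Balb/c (nu/nu) mice, which lack T cells, and injected at 6 to 8 weeks of age. The treated pool held tumours given 30 min of modulated electro-hyperthermia, a heating by an electromagnetic field, on day 18 and taken 4 h later. The opposite-side pool held the unheated tumours of those same animals, and the control pool held xenografts described only as controls. Each of the 3 groups was 1 pool of RNA, from a number of animals that the labels do not state, hybridised to 2 technical arrays. No test between conditions was therefore possible. The SD of a level is that of the 2 arrays of a pool. The SD of a difference is the square root of the summed squares of both pool SDs.

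SRF is a transcription factor that binds the CArG box, a short DNA element found beside many genes of actin and actin-binding proteins. Its cofactors of the MRTF family are held by unpolymerised actin and released when actin filaments grow, while its ELK cofactors answer to MAP kinase signalling and drive immediate early genes. In epithelial tumour cells the ubiquitous members build the cell cortex, stress fibres and adhesions. The muscle-type members form sarcomeres or the contractile apparatus of smooth muscle, although MYL9 and TPM1 are also made outside muscle, and TPM1 yields muscle and non-muscle forms by alternative splicing.

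The CArG boxes of the members were looked for in RefSeq windows of GRCh38.p14 that run from 250 bases before to 50 bases after a gene start. Such windows were found for 8 members, 13 windows in all, and none for TAGLN or MYL9. The search took 10 bases that begin with CC, end with GG and hold only A or T between, on both strands. A match stood in 1 window each of SRF, ACTG1, TPM4, CNN2 and ACTA1, and in 1.29% of all 35116 windows. The stretches around these matches are shown because they set members with large and small differences side by side. They run 5′ to 3′ on the strand of the gene, with the CArG box in capitals.
ACTA1 (chr1:229434142-229434231, minus strand): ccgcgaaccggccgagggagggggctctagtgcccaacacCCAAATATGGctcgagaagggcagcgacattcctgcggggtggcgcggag
TPM4 (chr19:16067325-16067414, plus strand): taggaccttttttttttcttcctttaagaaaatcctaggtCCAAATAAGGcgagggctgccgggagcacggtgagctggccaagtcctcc
CNN2 (chr19:1026479-1026568, plus strand): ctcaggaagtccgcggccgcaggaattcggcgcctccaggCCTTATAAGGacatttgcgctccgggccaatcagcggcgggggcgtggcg
ACTG1 (chr17:81512844-81512933, minus strand): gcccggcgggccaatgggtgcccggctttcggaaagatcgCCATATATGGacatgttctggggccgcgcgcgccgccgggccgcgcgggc
SRF (chr6:43171199-43171268, plus strand): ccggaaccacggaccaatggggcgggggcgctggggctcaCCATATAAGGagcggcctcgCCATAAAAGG

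The box began 97 bases before the start of ACTA1, 94 before that of ACTG1, 89 before that of CNN2 and 173 before that of TPM4. SRF carried a pair of boxes, which began 30 and 10 bases before its start. The windows of TAGLN2, VCL and TPM1 held no match, which says only that these letters are not in these windows. The heat shock elements TTCNNGAA and GAANNTTC, searched on both strands, were in 0 of the 13 member windows and, either of them, in 13.5% of all windows.

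Levels are log2 intensities, whose lowest value on every array was 2.37, and a probe set was called detected where a pool mean reached 5. A difference counts as past the 2-fold rule if 1 or more separated the pool means, each array of the higher pool read above each array of the lower pool, and neither of the 2 higher arrays read under 5. A second rule used 1.5-fold in place of 2-fold. Where the lower pool lay below 5, its fold is a lower bound taken against 5. As a yardstick for array error, 95% of the 12992 detected probe sets differed between the 2 arrays of a pool by no more than 0.257 in the treated, 0.223 in the opposite-side and 0.211 in the control pool. Within array error means below these values, which come from single arrays over all detected probe sets and not from the probe set in question.

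The HT-29 label was checked against 10 markers of colon epithelium, of which 8 were detected, among them EPCAM and KRT20. CDX1 and CDX2 lay within 0.2 of the lowest value on all arrays. The median difference of the 8 was 0.14 in treated minus control. For counts by gene, the probe set with the greatest mean over all arrays stands for the gene, and 9 members have a probe set of their own. Of these 9, SRF and MYL9 were below 5 in every pool and 7 were detected.

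ACTA1 and TAGLN, 2 of the 4 muscle-type members, were higher in treated tumours than in control tumours by the 2-fold rule, and so was a pair of TPM1 probe sets. Their measured differences were 1.66 to 2.17 on the log2 scale, with the control mean below 5 for ACTA1 and for 1 of the TPM1 pair. The opposite-side pool lay between the other pools for TAGLN and the TPM1 pair. For ACTA1 the opposite-side and control pools were both below 5, so their order is not counted. TPM1 by gene differed by 0.35 and MYL9 was not detected. The ubiquitous members TAGLN2 and CNN2 differed from control by no more than 0.18 in size. VCL and TPM4 differed by 0.51 and 0.59, more than TPM1 by gene. By gene, 2 of the 7 detected members were past the 2-fold rule in treated against control, both higher, against 0.625% of the 7204 genes at or above 5 in either pool. Of the 2, ACTA1 is counted through its treated arrays alone, and with a minimum level of 6 only TAGLN passed. By the 1.5-fold rule 3 were higher, against 2.79% of genes, and 0 were lower, against 1.61%.

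**Figure D1:**
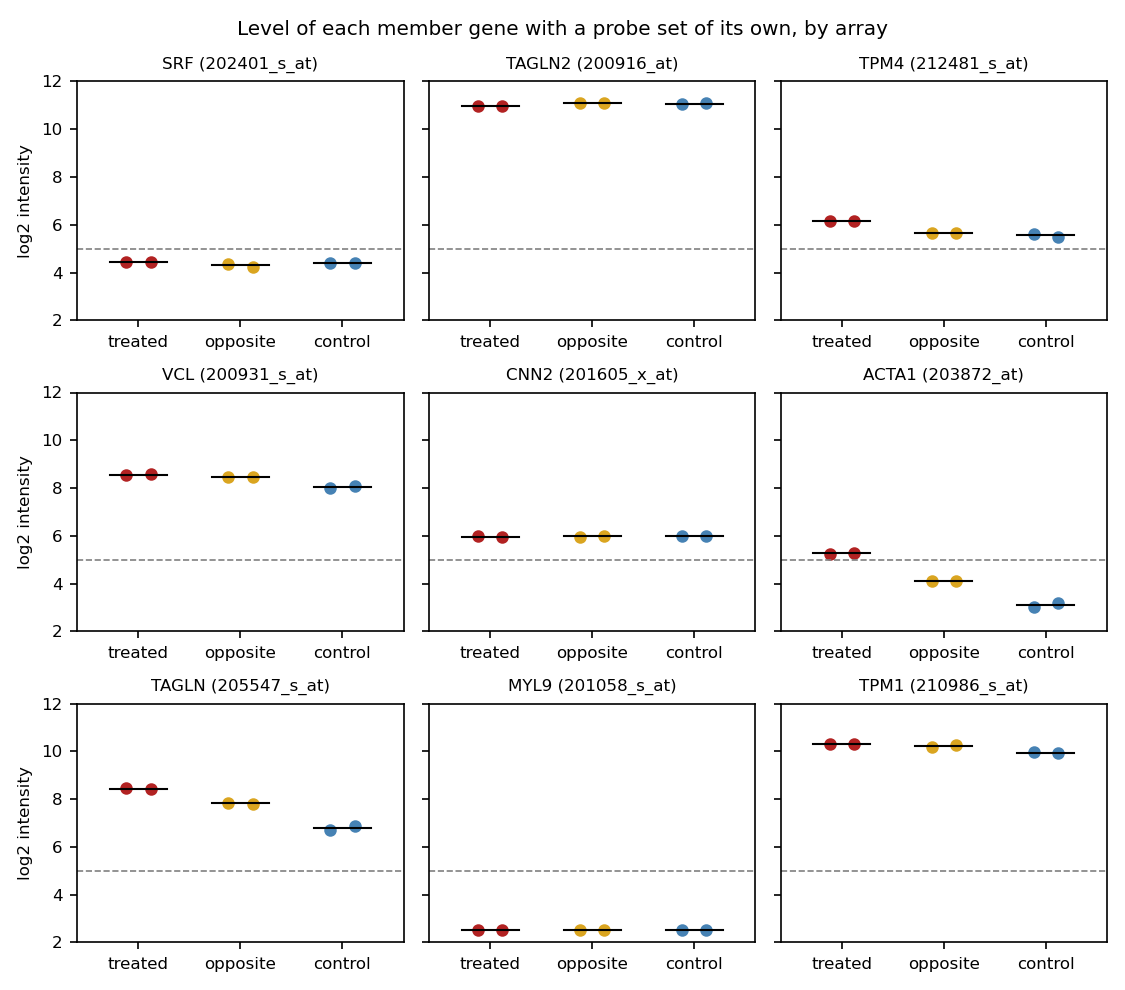
Log2 intensity (y axis) on each of the 2 arrays (points) of the treated, opposite-side and control pools, with the pool mean (black bar), for the 9 members with a probe set of their own; the dashed line marks 5. TAGLN descends from treated to opposite-side to control, and ACTA1 is above 5 in the treated pool only. TAGLN2 and CNN2 are nearly level and MYL9 stays at 2.50.

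SRF itself did not reach 5. Its higher probe set (202401_s_at) read 4.43 and 4.45 on the treated arrays, 4.36 and 4.24 on the opposite-side arrays, and 4.42 and 4.39 on the control arrays. The pool means differed by no more than 0.14 in size, and the other probe set lay at the lowest value on every array. No order of the pools can be read for SRF.

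ACTA1 encodes the actin of skeletal muscle fibres. Its only probe set (203872_at) read 5.26 and 5.29 in the treated pool, 4.11 and 4.11 in the opposite-side pool, and 3.03 and 3.18 in the control pool. All 3 pools were separated without overlap, but only the treated arrays were above 5. The treated pool was higher than control by 2.17 ± 0.104 (log2, SD from the 2 arrays of each pool), which gives at least 1.21-fold. Against the opposite-side pool the treated pool was higher by 1.17, again at least 1.21-fold. Both measured differences include levels below 5, so their exact size is uncertain. The opposite-side pool was 1.00 above control, but with both pools below 5 this difference is not counted.

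TAGLN encodes transgelin, an actin-binding protein of smooth muscle that some fibroblasts and tumour cells also make. Its detected probe set (205547_s_at) read 8.47 and 8.42 in the treated pool, 7.85 and 7.80 in the opposite-side pool, and 6.69 and 6.87 in the control pool. The 3 pools did not overlap and all lay above 5, with the treated pool highest and the control pool lowest. The treated pool was 3.16-fold higher than the control pool and 1.53-fold higher than the opposite-side pool, and the opposite-side pool was 2.06-fold higher than control. These correspond to log2 differences of 1.66 ± 0.130, 0.62 ± 0.053 and 1.04 ± 0.131. The other TAGLN probe sets lay below 5 in all pools, with treated means of 3.88 and 3.82 against control means of 3.55 and 3.82, so the result rests on 1 of 3 probe sets. The median over its probe sets differed by 0.06 in treated minus control.

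TPM1 encodes alpha-tropomyosin, which winds along actin filaments and controls access of myosin. Its 6 probe sets fell into unlike patterns. Probe set 206116_s_at read 10.10 and 10.13 on the treated arrays, 9.33 and 9.31 on the opposite-side arrays, and 8.08 and 8.27 on the control arrays. Probe set 206117_at read 6.37 and 6.48 on the treated, 5.64 and 5.61 on the opposite-side, and 4.42 and 4.55 on the control arrays. For both, every treated array was above every opposite-side array and every opposite-side array above every control array. The treated minus control difference was 1.94 ± 0.136 for the first, a 3.84-fold difference. For the second it measured 1.94 ± 0.124 with the control mean, 4.49, below 5, which gives at least 2.68-fold. In treated minus opposite-side they differed by 0.80 each, and in opposite-side minus control by 1.15 and 1.14, the value of 206117_at giving at least 1.54-fold.

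The other TPM1 probe sets did not share this pattern. Probe set 210986_s_at, which has the highest mean and so represents the gene, read 10.30 and 10.29 in the treated pool, 10.18 and 10.26 in the opposite-side pool, and 9.97 and 9.93 in the control pool. It differed by 0.35 in treated minus control and by 0.08 in treated minus opposite-side. Probe set 210987_x_at differed by 0.20 and -0.07 in the same comparisons, and 238688_at by -0.12 and 0.02, with overlapping arrays. The sixth lay at the lowest value throughout. These 5 detected probe sets share a gene and the same RNA pools, and which transcripts each one detects was not analysed here. By gene TPM1 thus missed both rules, while 2 of its 5 detected probe sets passed the 2-fold rule in treated against control and in opposite-side against control.

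**Figure D2:**
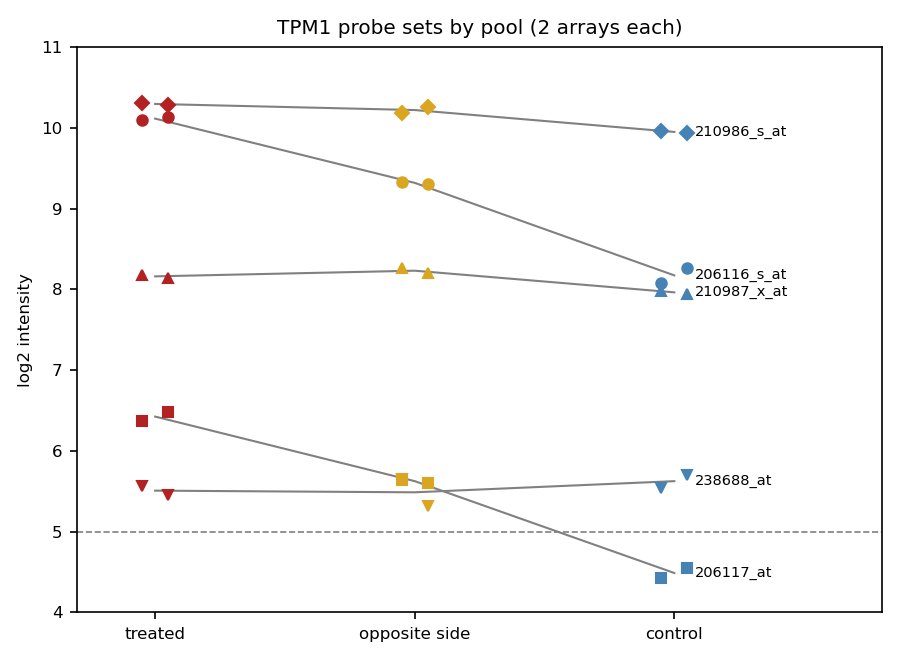
Log2 intensity (y axis) of the 5 detected TPM1 probe sets on the 2 arrays (points) of each pool, with lines through the pool means and a dashed line at 5. Probe sets 206116_s_at and 206117_at lie 1.94 higher in treated than in control tumours, and the other 3 differ by -0.12 to 0.35.

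MYL9, the regulatory light chain of smooth muscle and non-muscle myosin, gave no usable signal. One probe set read 2.50 on each of the 6 arrays and the other the lowest value, 2.37. Of the muscle-type members, 1 of 4 was therefore not detected in any pool.

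Of the ubiquitous members, ACTG1 encodes the cytoplasmic gamma actin and has no probe set of its own. All 9 probe sets that name it also name ACTB, the cytoplasmic beta actin, whose sequence is nearly the same, so the values below belong to the 2 genes together. Their pool means ran from 12.90 to 13.43 in the treated pool, from 12.88 to 13.49 in the opposite-side pool and from 12.67 to 13.28 in the control pool. All 9 were higher in treated than in control tumours without overlap of arrays, by 0.07 to 0.28 (median 0.13). Such a lack of overlap in that direction was seen for 34% of the 12835 probe sets at or above 5 in either pool. The 9 probe sets share 2 genes of nearly the same sequence and the same RNA pools, so they are not 9 independent results. All 9 were also higher in the opposite-side than in the control pool, by 0.14 to 0.23, where the share over all probe sets was 34% as well. In treated minus opposite-side they ran from -0.11 to 0.06, within array error.

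The probe sets for ACTB alone gave differences that depended on where along the transcript they lie. The quality-control probe set at the 3′ end was 0.23 higher in treated than in control tumours, the middle one 0.63 and that at the 5′ end 1.12. In opposite-side minus control these were 0.15, 0.63 and 1.28, and in treated minus opposite-side 0.08, -0.004 and -0.16. The GAPDH probe sets at the 3′ end, middle and 5′ end differed by -0.03, -0.12 and -0.46 in treated minus control. At the 5′ end GAPDH differed by -0.01 in opposite-side minus control and by -0.45 in treated minus opposite-side. The readings at the 5′ end thus had opposite signs for ACTB and GAPDH in treated minus control and the same sign in treated minus opposite-side. The part of transcript integrity or labelling in the differences of TAGLN, TPM1 and ACTA1 was not tested.

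TAGLN2, the transgelin of non-muscle cells, was slightly lower in the treated pool on both of its probe sets. The first (200916_at) read 10.97 and 10.96 in treated, 11.09 and 11.11 in opposite-side, and 11.06 and 11.09 in control tumours. It differed by -0.11 and the second (210978_s_at) by -0.18 in treated minus control, and by -0.13 and -0.19 in treated minus opposite-side. Arrays of the treated pool did not overlap with the others, but all 4 differences are below the yardstick for array error. Their SDs from the arrays of the probe sets themselves were smaller, 0.013 to 0.043. TAGLN2 thus did not share the treated minus control difference of its relative TAGLN (1.66).

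CNN2, calponin 2, a regulator of actin filaments in non-muscle cells, was nearly level. It read 5.98 and 5.97 in the treated pool, 5.97 and 6.01 in the opposite-side pool, and 5.98 and 6.00 in the control pool. The largest of its 3 differences in size was -0.02, in treated minus control.

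TPM4, a tropomyosin of non-muscle cells, was higher in the treated pool than in both others. Its detected probe set (212481_s_at) read 6.16 and 6.16 on the treated, 5.68 and 5.64 on the opposite-side, and 5.64 and 5.51 on the control arrays. The treated pool differed from control by 0.59 ± 0.088, which lies at the edge of the 1.5-fold rule, and from the opposite-side pool by 0.50 ± 0.028. The opposite-side and control pools differed by 0.09, within array error. The other 4 TPM4 probe sets lay below 5 in every pool.

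VCL encodes vinculin, which ties actin filaments to focal adhesions and to cell junctions. Its detected probe set (200931_s_at) read 8.53 and 8.59 in the treated, 8.47 and 8.48 in the opposite-side, and 8.02 and 8.08 in the control pool. Here the control pool was the low one. Treated exceeded control by 0.51 ± 0.055 and opposite-side exceeded control by 0.43 ± 0.040, both under 1.5-fold, while treated and opposite-side differed by 0.08, within array error. VCL held place 275 and TPM4 place 201 of 7204 genes in treated minus control, against place 16 for TAGLN, 668 for TPM1, 3649 for CNN2 and 4791 for TAGLN2.

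**Figure D3:**
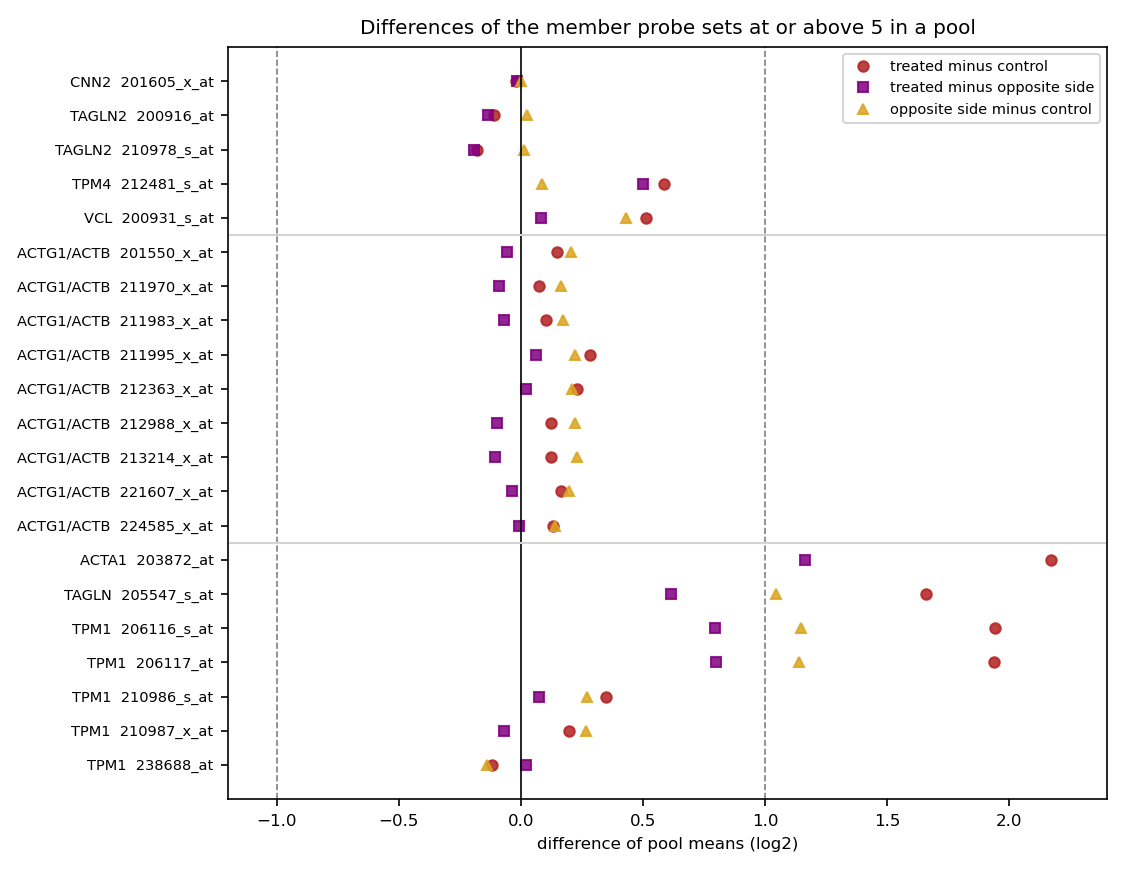
Difference of pool means (x axis, log2) for the 21 member probe sets that reached 5 in a pool, in treated minus control (circles), treated minus opposite side (squares) and opposite side minus control (triangles); dashed lines mark -1 and 1, a comparison with both pools below 5 is not drawn, and rows run from ubiquitous members through probe sets shared by ACTG1 and ACTB to muscle-type members. ACTA1, TAGLN and a pair of TPM1 probe sets lie beyond 1 in treated minus control.

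Set side by side, the 3 detected muscle-type genes had a median difference of 1.66 in treated minus control and the 4 ubiquitous genes with a probe set of their own had 0.25, where the median over all 7204 genes was -0.02. In treated minus opposite-side the medians were 0.62 for muscle-type and 0.03 for ubiquitous genes, with 0.01 over 7155 genes. Both muscle-type medians are the values of TAGLN, with ACTA1 detected in the treated pool alone and MYL9 left out as not detected. With a minimum level of 6, which leaves out ACTA1 and CNN2, the treated minus control medians were 1.00 for muscle-type and 0.51 for ubiquitous genes, and the treated minus opposite-side median of muscle-type genes was 0.35. With no minimum level, which adds MYL9, the treated minus control median of muscle-type genes was 1.00 as well. By the median of the probe sets of each gene, where TAGLN lies below 5, the medians were 1.33 for muscle-type and -0.02 for ubiquitous genes, and without the _x_at and _s_at probe sets they were 1.03 and -0.11. In the main setting, with 3 and 4 genes, these medians rest on few values, and TPM1 enters through probe set 210986_s_at alone. Without the _x_at and _s_at kinds, the muscle-type value came from ACTA1 and from TPM1 probe set 238688_at (-0.12). The ubiquitous value was then that of TAGLN2 alone. Over single probe sets, 4 of the 12 detected ones that name 1 member were past the 2-fold rule in treated against control, all higher, against 0.787% of 12835 probe sets.

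In treated against opposite-side, which compares heated and unheated tumours of the same animals, 1 of 7 detected member genes was past the 2-fold rule. This was ACTA1, against 0.28% of 7155 genes, and with all arrays scaled to 1 median of the spike-in probe sets its difference was 0.98 and 0 members passed. ACTA1 reached 5 in the treated pool only, so it enters this count through the pool where it is high. With a minimum level of 6, 0 members passed as well. By the 1.5-fold rule TAGLN passed as well, 2 of 7 against 1.96% of genes, and 0 members were lower, against 1.05%. Of the 12 detected probe sets of 1 member, 1 was past the 2-fold rule (background 0.362%) and 4 past the 1.5-fold rule (background 2.28%), namely those of ACTA1, TAGLN and the pair of TPM1. Scaling to the spike-in probe sets lowered every difference of this comparison by 0.19. It turned the small positive values of VCL and of TPM1 probe set 210986_s_at to -0.11 each, made all probe sets shared by ACTG1 and ACTB negative, and left TAGLN at 0.43.

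In opposite-side against control, 1 of 6 detected member genes was past the 2-fold rule, TAGLN, against 0.237% of 7182 genes. Without the first control array its difference was 0.95 and 0 members passed. The 1.5-fold rule called the same single gene, against 1.46% of genes. Scaling to the spike-in probe sets raised every difference here by 0.175, which put CNN2 at 0.17 and left TAGLN past the 2-fold rule. Of 11 detected probe sets of 1 member 3 were past the 2-fold rule, that of TAGLN and the pair of TPM1, against 0.328% of probe sets. This comparison and treated against control share the control pool, so the values of a member in both are not independent.

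The members with a CArG box in the windows shown above gave both large and small differences. In treated minus control they gave 2.17 for ACTA1, 0.59 for TPM4 and -0.02 for CNN2, with 0.07 to 0.28 for the probe sets shared by ACTG1 and ACTB and SRF below 5. Those without a match gave 0.51 for VCL, 0.35 for TPM1 and -0.11 for TAGLN2. The pair of TPM1 probe sets past the 2-fold rule stood at 1.94. With so few genes, no relation between a match and the size of a difference was tested.

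Cofactors of SRF and the genes around the members were described from lists chosen by function. Of 8 cofactor genes 4 were detected, and ELK3, an ELK-type cofactor, was past the 1.5-fold rule, at 6.58 ± 0.057 in treated and 5.79 ± 0.119 in control tumours. The opposite-side pool, at 6.38 ± 0.077, was also past the 1.5-fold rule against control for ELK3 (0.59). In treated minus control FHL2 differed by 0.39, MRTFB by 0.05 and ELK4 by 0.04, with a list median of 0.22. MRTFA stayed below 5 and MYOCD, the smooth and heart muscle cofactor, lay at the lowest value.

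Among 22 detected genes of the actomyosin and adhesion machinery of non-muscle cells, 0 were past the 2-fold rule and 2 higher by the 1.5-fold rule in treated against control, against 0.625% and 2.79% of all genes. These were CALD1, an actin-binding regulator of myosin (0.82), and ENAH, which promotes filament growth (0.64). MSN, a membrane to actin linker, differed by 0.46 and CAPZA2, a filament capping subunit, by 0.38. The median of the list was 0.18, and 18 of the 22 were higher in treated without overlap of arrays, against 34.7% of genes. The list median was 0.13 in opposite-side minus control and 0.03 in treated minus opposite-side, so most of the shift was shared by the unheated tumours. It was not particular to this list. The 8 detected colon epithelium markers had medians of 0.14 in treated minus control, 0.12 in opposite-side minus control and -0.01 in treated minus opposite-side. In treated against control 5 of those 8 were higher and 2 lower without overlap of arrays. The CALD1 probe sets disagreed, since other detected ones differed by 0.50 (201616_s_at) and -0.02 (201615_x_at). Those of ENAH and CAPZA2 disagreed as well. Other detected probe sets differed by 0.31 (222433_at) and -0.05 (228310_at) for ENAH, and by -0.10 (201237_at) for CAPZA2. Of the other actins, ACTA2, ACTC1 and ACTG2 stayed below 5 in all pools.

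Of 7 detected SRF-linked immediate early genes, which ELK cofactors also serve, 3 were past the 2-fold rule and 5 past the 1.5-fold rule in treated against control, all higher, against 0.625% and 2.79% of all genes. These were EGR1 (1.78), CCN2 (1.06), CCN1 (1.04), JUNB (0.66) and MCL1 (0.60), and the list median was 0.66. The detected genes FOS and IER2 differed by only 0.13 and 0.08. In opposite-side minus control the same list had a median of 0.18, with FOS lower by the 1.5-fold rule (-0.65), as 2.35% of genes were. The detected member genes also had a median of 0.18 there. In treated minus opposite-side the list had a median of 0.74, with EGR1 past the 2-fold rule and 4 genes past the 1.5-fold rule, against 0.28% and 1.96% of all genes. Among the 4 was FOS (0.77), whose opposite-side arrays had an SD of 0.297.

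Some markers of other cell types were higher in treated than in control tumours, but most markers on these lists were not detected. Of 25 skeletal muscle markers 4 were detected, and beside ACTA1 the fast muscle light chain gene MYL11 was higher, at 6.65 ± 0.106 in treated, 5.89 in opposite-side and 5.05 ± 0.044 in control tumours. TNNT1 differed by -0.45 and TNNT3 by 0.06 in treated minus control, and 8 of the 25, among them CKM, MYL1, MYH1 and MYH4, lay within 0.2 of the lowest value on every array. The summed linear intensity of the list, to which ACTA1 itself adds, was 452 to 470.4 on the treated arrays, 392.3 and 391.8 on the opposite-side arrays, and 362 to 371 on the control arrays. Without ACTA1 the sums were 413 to 432 in treated, 374.6 to 375.1 in opposite-side and 353 to 363 in control tumours. On the linear scale, the rise of this sum from control to treated was no larger than that of MYL11 alone. It is a net value, since TNNT1 was lower in treated tumours while some markers below 5 read higher. Among those below 5, MYH7 differed by 1.08, MYOZ1 by 0.84 and DES by -0.14. In these bulk samples more cells of a type and more RNA per cell cannot be told apart, and whether RNA of the mouse host reaches these probe sets was not tested.

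Of 12 smooth muscle markers 3 were detected, namely TAGLN, TPM2 (0.31) and MYLK (-0.47 in treated minus control). MYH11, CNN1, LMOD1, SYNPO2 and MYOCD lay within 0.2 of the lowest value on every array. The summed intensity of the list, to which TAGLN itself adds, was 1165 to 1183 in treated, 879 to 901 in opposite-side and 828 to 832 in control tumours. Without TAGLN it was 824 to 829 in treated, 656 to 670.3 in opposite-side and 715 to 724 in control tumours. On the linear scale, the rise of that sum from control to treated was no larger than that of TPM2 alone. It too is a net value, since MYLK was lower in treated tumours. Of 13 fibroblast and matrix markers 3 were detected in treated against control, with VIM at 1.14, COL1A1 at 0.67 and FN1 at 0.01. Their summed intensity was 483 to 485 in treated, 477 to 484 in opposite-side and 286 to 310.3 in control tumours, and DCN, PDGFRB, FAP, THY1, SPARC and POSTN lay within 0.2 of the lowest value. Of the endothelial and the leukocyte markers 1 gene each was detected, FLT1 (-0.04) and LYZ (0.23). CDH5, VWF, KDR and TEK of the first list lay within 0.2 of the lowest value on every array. So did PTPRC, CD14, CD3E, CD79A and CSF1R of the second. The part of these cell types in the differences of TAGLN, TPM1 and ACTA1 was not tested.

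**Figure D4:**
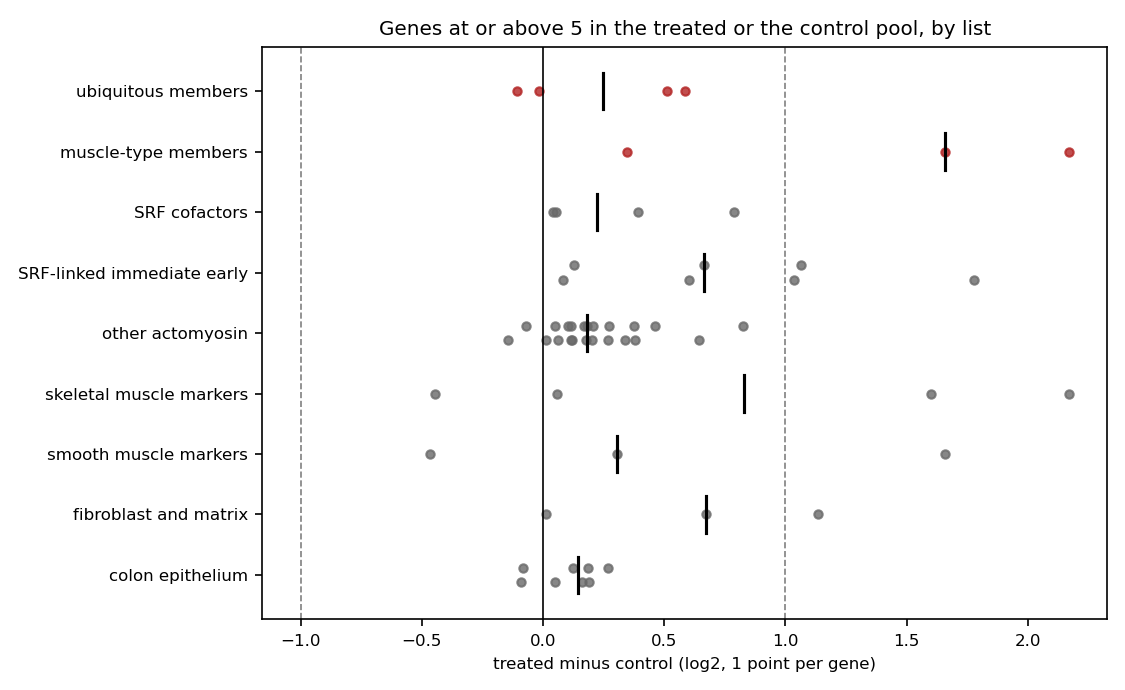
Treated minus control difference (x axis, log2) of each gene (1 point) at or above 5 in either pool, by list, with the list median as a black bar and dashed lines at -1 and 1; members are red and other lists grey, and a gene may stand in more than 1 list. The detected muscle-type members have a median of 1.66, the value of TAGLN, against 0.25 for the ubiquitous members and 0.18 for the other actomyosin genes. With MYL9, which is not drawn, the muscle-type median is 1.00.

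The genes whose 3 pool means, centred on their own mean, lay nearest to those of a member were sought among 7267 detected genes. For TAGLN they were the metallothionein MT1F at a Euclidean distance of 0.050 on the log2 scale, the RNA-binding protein gene CPEB4 at 0.12 and THBS1, which encodes the matrix protein thrombospondin 1, at 0.15. Likeness over 3 pools describes these pools only, and none is given for MYL9, which was not detected, or for ACTA1, which was below 5 in 2 of the pools.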

How the data were processed

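RNA of 3 pools was hybridised to 6 human 1-colour arrays. The deposited values are log2 intensities processed by the authors with GCRMA, per the submitters' processing notes, whose version is not given in the sources used here. Their range shows the log2 scale, and 27.8% to 28.5% of probe sets per array lay at the lowest value. Of 54675 probe sets, 41097 named 1 gene, 1801 several and 11777 none in the platform annotation, and 41043 of the first were matched to current RefSeq symbols by Entrez identifier. From the deposited values, pool means, differences and counts were computed in Python 3.11.15 with numpy 2.4.6, pandas 2.3.3 and matplotlib 3.10.9, and the size rules were checked on simulated data. The members, lists, thresholds and alternatives were chosen with earlier results of these data known. Of the other lists, genes past a rule and those with the largest differences are named, and genes most like ACTA1 are not given because it lay below 5 in 2 pools. One further list is not reported here. Precision is limited by the number of arrays. Alternatives were other minimum levels, rules, scalings, probe set choices and leaving out each array.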

Additional observations from a re-analysis of the deposited data

How the results depend on the processing

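The counts of member genes past the 2-fold rule were 2 in treated against control (ACTA1 and TAGLN), 1 in treated against opposite-side (ACTA1) and 1 in opposite-side against control (TAGLN). With a minimum level of 6 they were 1, 0 and 1, and with a minimum level of 4 or none they were 2, 1 and 2. The 1.5-fold rule gave 3, 2 and 1. The same spike-in median gave 2, 0 and 1. The median over the probe sets of a gene, and likewise leaving out the _x_at and _s_at probe sets, gave 1, 1 and 0, since the called TAGLN probe set is of the _s_at kind and the others lie below 5. Leaving out each array in turn gave 2 to 2, 1 to 1 and 0 to 1, the 0 without the first control array. As a replicate block, only the differences between arrays of the same technical number had to agree, which gave 2, 1 and 1. Linear averaging, the same median, quantile normalization, no required agreement and the inclusion of probe sets of several genes also left the 3 counts at 2, 1 and 1. No member past the 2-fold rule changed sign in these alternatives. Of those past the 1.5-fold rule only, TAGLN in treated minus opposite-side was -0.06 with either of the other choices of probe set, and TPM4 in treated minus control was -0.03 by the median of its probe sets and -0.11 without the _x_at and _s_at kinds, on probe sets below 5. Signal near the lowest value limits what can be read for SRF, MYL9 and ACTA1.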
